A study of Mus musculus with 12 samples.

Results

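The genes Camk2a, Camk2b, Camk2d and Camk2g encode the alpha, beta, delta and gamma subunits of Ca2+/calmodulin-dependent protein kinase II (CaMKII), and they were followed here through cultured cardiomyocytes given 3 cytokines. All 4 were found in the deposited expression table by their gene name, among 22915 genes in all, and all 4 passed the filter on low values. The set was picked because Camk2b separated hlOSM from mOSM, so that the Camk2b difference between those conditions is given as a description only. The fold change of mLIF against PBS uses none of those libraries, though its p-value rests on a spread estimated over all libraries. The mean of both OSM conditions uses them but not their difference, and its Camk2b value is a description too.

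Primary cardiomyocytes came from adult male mice of the strain C57/Bl6, aged 12 weeks, and were kept for 24 h under normoxic conditions with mLIF (murine leukemia inhibitory factor), mOSM (murine oncostatin M) or hlOSM. In mouse cells mLIF acts on the LIF receptor and mOSM on the OSM receptor, while hlOSM is an engineered murine OSM with a human AB loop that signals through both. The GEO labels give 25 ng per mL for each protein, whereas the methods of the study name a slightly lower dose, and controls received the same volume of PBS. Each condition had 3 libraries of total RNA, 12 in all, and nothing in the labels says whether they came from separate hearts, so that p-values measure only the spread between these libraries. No gene was deleted and no transgene was present in any group.

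CaMKII senses Ca2+ through calmodulin, which displaces the regulatory segment from the catalytic site. Neighbouring subunits of the assembled holoenzyme then phosphorylate each other on a threonine of that segment, and the kinase stays active after Ca2+ has fallen. The delta subunit is the main form of the heart, with gamma beside it, whereas alpha and beta are best known from neurons, and beta also binds actin filaments. In cardiomyocytes the kinase acts on the ryanodine receptor, phospholamban, the L-type Ca2+ channel and class II histone deacetylases, and it is known for its part in arrhythmia and heart failure.

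The genes lie on different chromosomes (mm10 coordinates). Camk2b (ENSMUSG00000057897) is on chromosome 11 at 5969644-6066362 on the minus strand. Camk2d (ENSMUSG00000053819) is on chromosome 3 at 126596302-126846326 on the plus strand, and Camk2g (ENSMUSG00000021820) is on chromosome 14 at 20734875-20794088 on the minus strand. All 4 genes are protein-coding, and 0% of their exon bases overlapped an exon of another annotated gene on either strand.

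Since the subunits are close relatives, a coding stretch of 60 bases is shown to compare them around the codon of the autophosphorylated threonine. It lies in coding exon 11 of each transcript used, at chr11:5988967-5989026 on the minus strand in Camk2b (exon 11 of 21), at chr3:126797714-126797773 on the plus strand in Camk2d (exon 11 of 19) and at chr14:20760409-20760468 on the minus strand in Camk2g (exon 11 of 21), all on GRCm38, the mm10 build. Capitals mark the positions at which the genes shown do not all have the same base.
Camk2b: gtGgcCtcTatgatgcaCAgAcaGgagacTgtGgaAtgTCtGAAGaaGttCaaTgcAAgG
Camk2d: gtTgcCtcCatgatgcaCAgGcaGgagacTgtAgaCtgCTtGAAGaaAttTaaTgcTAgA
Camk2g: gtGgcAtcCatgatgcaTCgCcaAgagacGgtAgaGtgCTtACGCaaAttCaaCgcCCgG
Of the 60 positions, 22 differed among these genes, with 11 between Camk2b and Camk2d, 19 between Camk2b and Camk2g and 17 between Camk2d and Camk2g. A read of 75 bases, the read length of the study, therefore tells the members apart even here. Over all annotated transcripts, 0 of 7566 stretches of 75 bases in Camk2a, 0 of 9790 in Camk2b, 0 of 23354 in Camk2d and 0 of 7181 in Camk2g occurred in any other annotated gene.

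Values are counts of reads per gene that the authors normalized between libraries and rounded, called normalized counts here. They are not reads, so that no counting error can be attached to a single value. Library totals lay between 2745748 and 2911891 on this scale. The median log2 fold change over all 13184 tested genes was -0.00659 to 0.00037 in the comparisons below, and no gene was the target of a deletion that could check the labels. All fold changes are on the log2(normalized count + 1) scale from limma, with p-values adjusted over all tested genes by Benjamini-Hochberg, and a gene was called when its adjusted p was under 0.05.

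All members were lower with cytokine than with PBS on average, and Camk2b moved furthest. As a percentage of the PBS mean, Camk2b was at 69.5% in mLIF, 74.2% in mOSM and 41.6% in hlOSM libraries. Camk2a stood at 81.1%, 84.2% and 78.9%, Camk2d at 90.2%, 81.9% and 80.4%, and Camk2g at 91.0%, 89.6% and 92.6%.

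**Figure D1:**
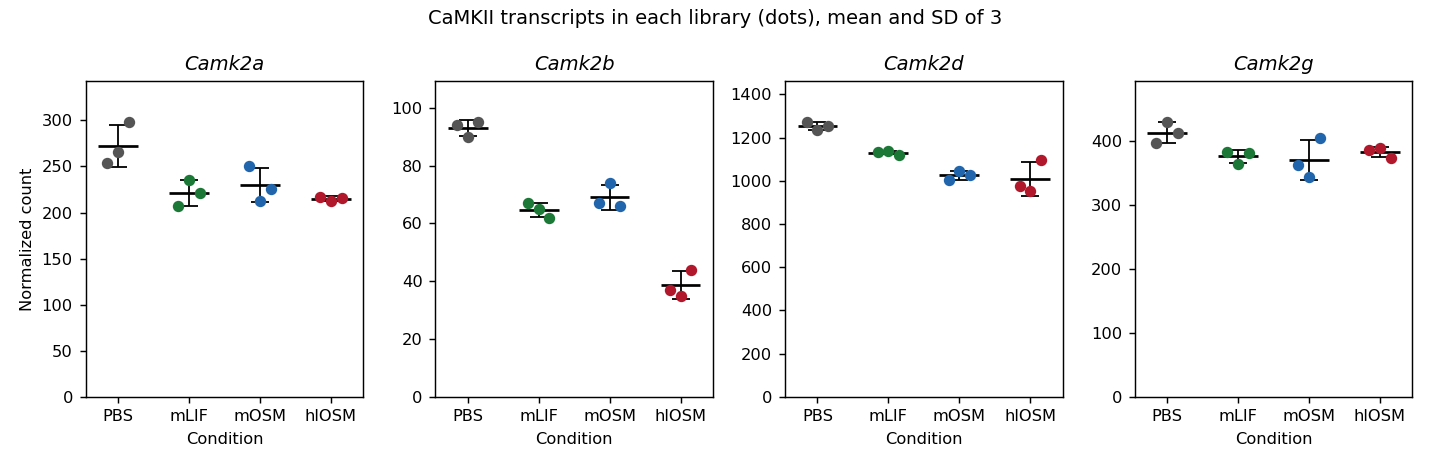
Normalized count (y axis, from 0, with its own scale in each panel) of Camk2a, Camk2b, Camk2d and Camk2g in each of the 12 libraries (dots) by condition (x axis), with the mean and SD of 3 as lines. Camk2b lay at 90 to 95 with PBS and at 35 to 44 with hlOSM, while Camk2g stayed between 343 and 429 throughout.

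Camk2d, the cardiac isoform, had the highest normalized counts of the family. It was measured at 1271, 1233 and 1255 in the PBS libraries, at 1134, 1137 and 1121 with mLIF, at 975, 951 and 1097 with hlOSM and at 1005, 1046 and 1027 with mOSM. Every PBS library was above every cytokine library, and every mLIF library was above every OSM library of either kind. The group means were 1253 ± 19.1 with PBS, 1131 ± 8.50 with mLIF, 1026 ± 20.5 with mOSM and 1008 ± 78.3 with hlOSM (SD, n = 3 each). Within hlOSM, replicate 3 stood above the other libraries and also above all mOSM libraries, so that the OSM conditions overlapped.

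Against PBS, Camk2d fell by 0.29 ± 0.053 with mOSM (log2, SE; limma adjusted p = 0.000213) and by 0.32 ± 0.053 with hlOSM (adjusted p = 5.71e-05). With mLIF the log2 fold change was -0.15 ± 0.053, with a 95% interval of -0.26 to -0.038, and it did not pass the threshold (adjusted p = 0.0777). In a fit of the PBS and mLIF libraries alone it passed (adjusted p = 0.0175).

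Camk2g, the other subunit with a high level in the heart, differed least between conditions. Its normalized counts were 397, 429 and 412 with PBS, 382, 364 and 381 with mLIF, 385, 388 and 373 with hlOSM and 362, 343 and 404 with mOSM. The mLIF and hlOSM libraries were below all PBS libraries, whereas mOSM replicate 3, at 404, lay within the PBS range. Means were 413 ± 16.0 with PBS, 376 ± 10.1 with mLIF, 370 ± 31.2 with mOSM and 382 ± 7.94 with hlOSM (SD, n = 3 each).

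None of the Camk2g comparisons with PBS passed the threshold in limma. The log2 fold change was -0.13 ± 0.063 with mLIF (adjusted p = 0.182), -0.16 ± 0.063 with mOSM (adjusted p = 0.0572) and -0.11 ± 0.063 with hlOSM (adjusted p = 0.178). The unadjusted p was under 0.05 for mLIF (0.0448) and mOSM (0.0186) and not for hlOSM (0.0947), beside 25.7%, 41.1% and 46.5% of all tested genes under 0.05 in the same comparisons. The mOSM value rested on mOSM replicate 3, since without it the log2 fold change was -0.23 and passed (adjusted p = 0.00666). The 95% intervals were -0.27 to -0.0034 with mLIF, -0.29 to -0.030 with mOSM and -0.24 to 0.021 with hlOSM. Only the hlOSM interval held 0, but these intervals are not adjusted over genes. After adjustment a moderate fall of Camk2g was neither called nor excluded.

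Camk2a (ENSMUSG00000024617, chromosome 18, 60925618-60988152, plus strand), the alpha subunit, was measured at 254, 266 and 298 with PBS, at 207, 235 and 221 with mLIF, at 217, 212 and 216 with hlOSM and at 250, 213 and 226 with mOSM. All 9 cytokine libraries were below the lowest PBS library, with mOSM replicate 1 at 250 closest to the lowest PBS value of 254. The cytokine conditions overlapped one another, with means of 221 ± 14.0, 230 ± 18.8 and 215 ± 2.65 against 273 ± 22.7 with PBS (SD, n = 3 each).

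Camk2a fell by 0.30 ± 0.077 with mLIF (log2, SE; limma adjusted p = 0.0154), by 0.25 ± 0.077 with mOSM (adjusted p = 0.0171) and by 0.34 ± 0.077 with hlOSM (adjusted p = 0.00134). The mLIF call was lost without PBS replicate 3, the highest PBS library (-0.24, adjusted p = 0.0997), without mLIF replicate 1 (-0.25, adjusted p = 0.0812) and without mLIF replicate 3 (-0.30, adjusted p = 0.0592). The mOSM call was lost without PBS replicate 3 (-0.18, adjusted p = 0.112) and without mOSM replicate 2 (-0.19, adjusted p = 0.0957), whereas the hlOSM call was kept whichever library was left out.

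Camk2b, the beta subunit, had the lowest counts and, relative to its PBS mean, the widest range. It was measured at 94, 90 and 95 with PBS, at 67, 65 and 62 with mLIF, at 37, 35 and 44 with hlOSM and at 67, 74 and 66 with mOSM. The conditions fell into 3 levels that did not overlap, with PBS at the top, mLIF and mOSM side by side, and hlOSM at the bottom. Means were 93.0 ± 2.65 with PBS, 64.7 ± 2.52 with mLIF, 69.0 ± 4.36 with mOSM and 38.7 ± 4.73 with hlOSM (SD, n = 3 each).

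With mLIF, Camk2b fell by 0.52 ± 0.11 (log2, SE; limma adjusted p = 0.00587), to 0.698 of its PBS level on the fitted scale, and 3.42% of the tested genes had a lower log2 fold change. In a fit of the PBS and mLIF libraries alone it also passed (limma adjusted p = 0.00411). With replicate number as a block in the fit, the limma adjusted p was 0.0277. Leaving out any library kept the value between -0.54 and -0.49 and kept the call. The difference between hlOSM and mOSM was -0.82 on the log2 scale, which is the value the gene was chosen for and carries no test here. Against PBS, Camk2b stood at -0.43 with mOSM and -1.25 with hlOSM (log2), also as a description. For the other members the log2 difference of hlOSM minus mOSM was -0.092 in Camk2a, -0.029 in Camk2d and 0.050 in Camk2g, and the libraries of those conditions overlapped for each. As background to the choice, 0.106% of all tested genes were called between hlOSM and mOSM and 5.62% were lower in hlOSM without overlap.

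**Figure D2:**
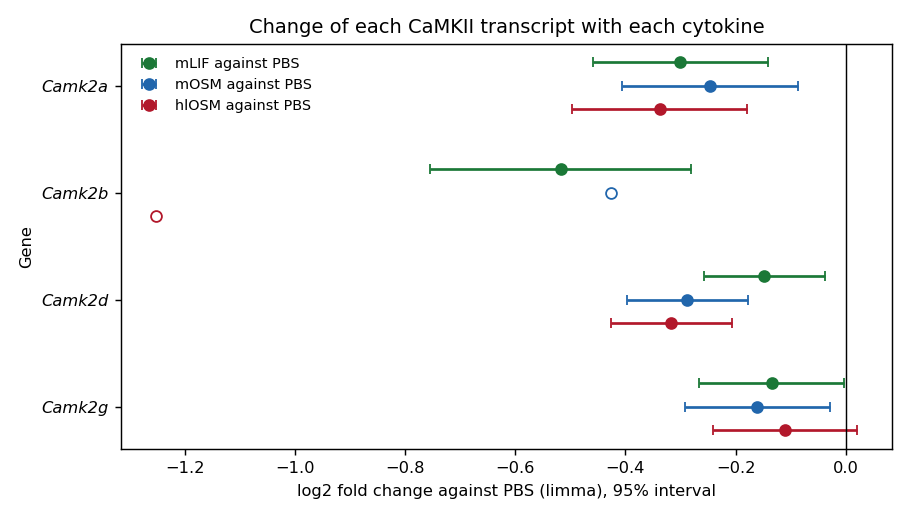
log2 fold change against PBS (x axis) of each member (y axis) with mLIF, mOSM and hlOSM, with 95% intervals from limma. Open points without an interval are the Camk2b values that chose the gene and were not tested. Camk2b with hlOSM, at -1.25, lies apart from the other points, which span -0.52 to -0.11.

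With mLIF, 2 of 4 members were called lower (Camk2a and Camk2b), beside 4.44% of all tested genes. All 4 were lower in every mLIF library than in any PBS library, beside 15.6% of all tested genes. With mOSM, Camk2a and Camk2d were called lower of the 3 members tested, beside 15.8% of all genes, and with hlOSM the same members were called, beside 19.8%. Without overlap, Camk2a and Camk2d were lower with mOSM (19.9% of all genes), and Camk2a, Camk2d and Camk2g with hlOSM (24.3%). These comparisons share the PBS libraries, so that a high PBS library moves them together.

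The mean of the mOSM and hlOSM conditions (below simply OSM) was compared with PBS. For Camk2b it uses the libraries that chose the gene, though not their difference, and both OSM conditions were below PBS. The Camk2b value was -0.84 (log2), given as a description. Of the other members, Camk2a and Camk2d were called lower against PBS, beside 21.4% of all tested genes. Camk2d fell by 0.30 ± 0.046 (log2, SE; limma adjusted p = 1.47e-05) and Camk2a by 0.29 ± 0.066 (adjusted p = 0.0012). For Camk2g the value was -0.14 ± 0.055, just beyond the threshold (adjusted p = 0.0521). Without mOSM replicate 3 it was -0.17 and passed (adjusted p = 0.00793). Camk2a and Camk2d had no overlap between the 6 OSM libraries and the PBS libraries, beside 16.5% of genes lower without overlap.

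Against mLIF, the mean of the OSM conditions was lower for Camk2d (-0.15 ± 0.046, limma adjusted p = 0.0203), 1 of the 3 members other than Camk2b, beside 9.89% of all genes. For Camk2b the value was -0.32, given as a description, since mOSM libraries overlapped mLIF with a higher mean and only the hlOSM libraries, for which the gene was chosen, lay below. For Camk2d all 6 OSM libraries were below all mLIF libraries, as for 9.52% of genes. The Camk2d call was lost without any one of the mLIF libraries (adjusted p = 0.0776, 0.0902 and 0.0574 for replicates 1 to 3) or hlOSM replicate 2 (0.0577). Camk2a, at 0.0082 with a 95% interval of -0.13 to 0.15, and Camk2g, at -0.00099 with an interval of -0.11 to 0.11, showed no detectable difference between the OSM conditions and mLIF.

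A ratio inside each library is free of the scaling between libraries. The log2 ratio of Camk2b to Camk2d was -3.74, -3.76 and -3.71 with PBS and -4.06, -4.11 and -4.15 with mLIF. It was -3.89, -3.80 and -3.94 with mOSM and -4.68, -4.72 and -4.61 with hlOSM. The mLIF libraries all lay below the mOSM and PBS libraries, and the hlOSM libraries lay furthest down. The mLIF mean was 0.37 below the PBS mean (difference -0.37), and an exact two-sided permutation test gave p = 0.1, the smallest p that 3 against 3 libraries allow. For the OSM conditions the ratio is a description, since Camk2b was chosen there.

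**Figure D3:**
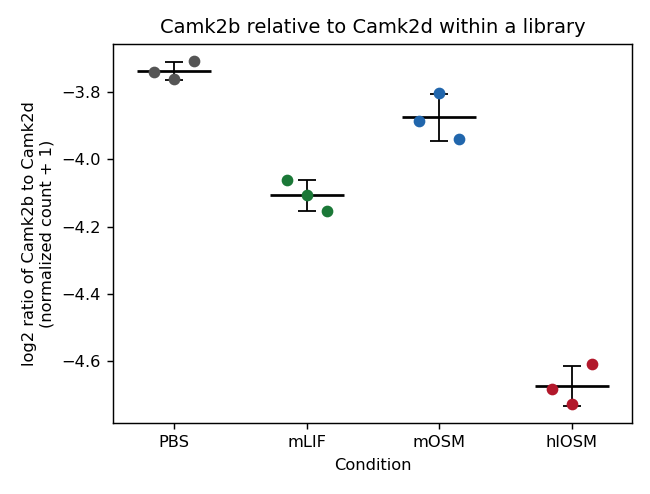
log2 ratio of Camk2b to Camk2d (y axis, normalized count + 1) in each library (dots) by condition (x axis), with the mean and SD of 3 as lines. The hlOSM libraries lie between -4.72 and -4.61 and the PBS libraries between -3.76 and -3.71, and mOSM lies between PBS and mLIF.

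Summed over the family, CaMKII normalized counts were 2031 ± 24.8 with PBS, 1792 ± 8.19 with mLIF, 1694 ± 25.1 with mOSM and 1643 ± 76.4 with hlOSM (SD, n = 3 each). Camk2b made up 4.58% ± 0.11 of that sum with PBS, 3.61% ± 0.13 with mLIF, 4.07% ± 0.30 with mOSM and 2.35% ± 0.17 with hlOSM. Its contribution to this total, which is not scaled by gene length, was small in every condition.

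Levels of different genes can be compared only per length. Per kb of annotated exon, PBS libraries held 64.5 ± 2.50 normalized counts of Camk2g, 55.7 ± 0.85 of Camk2d, 36.5 ± 3.05 of Camk2a and 10.2 ± 0.29 of Camk2b (SD, n = 3). With hlOSM the levels per kb were 59.7 ± 1.24, 44.8 ± 3.48, 28.8 ± 0.35 and 4.24 ± 0.52 in the same order. This order, Camk2g above Camk2d above Camk2a above Camk2b, held in all conditions, and no neighbours in it overlapped. Camk2g took 38.6% ± 1.24 of the family's level per kb with PBS and 43.4% ± 1.81 with hlOSM, while Camk2b took 6.11% ± 0.22 and 3.08% ± 0.31.

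The place of Camk2d depended on the length used. Its annotated exons cover 22493 bases, against 6401 in Camk2g, while the longest coding sequences have 1599 and 1695 bases. Divided by coding length, Camk2d came out on top in all conditions, with 784 ± 11.9 per kb against 243 ± 9.45 for Camk2g in PBS libraries (SD, n = 3). Camk2a and then Camk2b came last by either length. Which exons these cells use was not measured here, since the table gives 1 value per gene, and splice forms of the delta subunit cannot be told apart for the same reason.

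Over the 12 libraries, Camk2b and Camk2d had the highest correlation of log2 values among the members (Pearson r = 0.799), and Camk2b and Camk2g the lowest (r = 0.281). These are descriptions, since the points share conditions. After each condition's mean was removed, r was 0.921 for Camk2b with Camk2d and -0.147 for Camk2a with Camk2b. hlOSM replicate 3 had the highest Camk2b and the highest Camk2d of its group.

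Genes with a pattern most like each member were sought among 8670 tested genes with a mean of at least 50, by Pearson r of log2 values over the 12 libraries. For Camk2b these were Slc1a2, a glutamate transporter (r = 0.945), Mapt, the microtubule-binding protein tau (0.937), the zinc finger gene Zfp24 (0.936), Mttp, the microsomal triglyceride transfer protein (0.926), and Bhlhb9 (0.923). Slc1a2 was measured at 150, 145 and 140 with PBS, 91, 102 and 96 with mLIF, 58, 54 and 64 with hlOSM and 85, 83 and 86 with mOSM. It went down in the same steps as Camk2b, with mLIF above mOSM instead of beside it. Mapt ran from 481 to 510 with PBS and from 322 to 336 with hlOSM, and its mLIF and mOSM libraries lay between.

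For Camk2d the nearest genes were Qser1 (r = 0.977), Fyttd1 (0.966), Dipk2a (0.964), Klhl23 (0.964) and Megf9 (0.961). Qser1 had means of 1006 ± 28.8, 922 ± 11.5, 865 ± 19.0 and 846 ± 33.2 with PBS, mLIF, mOSM and hlOSM (SD, n = 3 each). For Camk2a they were Ptprm, a receptor tyrosine phosphatase (0.956), Crebzf (0.951), Naa40 (0.944), Alox5 (0.94) and P4ha1 (0.935). For Camk2g they were Dctn1, a dynactin subunit (0.981), Ttf1 (0.97), Rbbp5 (0.937), Rufy1 (0.923) and Ktn1 (0.921). No gene was nearest to more than 1 member.

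Around the kinase, a list of 48 genes was examined for its activators, inhibitors, phosphatases, substrates and relatives, of which 42 were tested. Camk4, Camk2n2, Dapk2 and Lrrc7 did not reach the filter, and Camk1g and Camkv were not analysed here. With mLIF, 3 listed genes rose and 10 fell, with a median log2 fold change of -0.061. Over all tested genes 5.47% rose and 4.44% fell. Of these 13 calls, 7 held under every alternative (Arc, Camkk2, Dapk1, Mef2a, Mef2c, Mylk3 and Mylk4), and the number of falls was 5 without PBS replicate 3, mLIF replicate 2 or mLIF replicate 3. With the mean of the OSM conditions, 7 rose and 23 fell, with a median of -0.16, beside 19.6% and 21.4% of all tested genes, and 22 of these 30 held throughout.

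**Figure D4:**
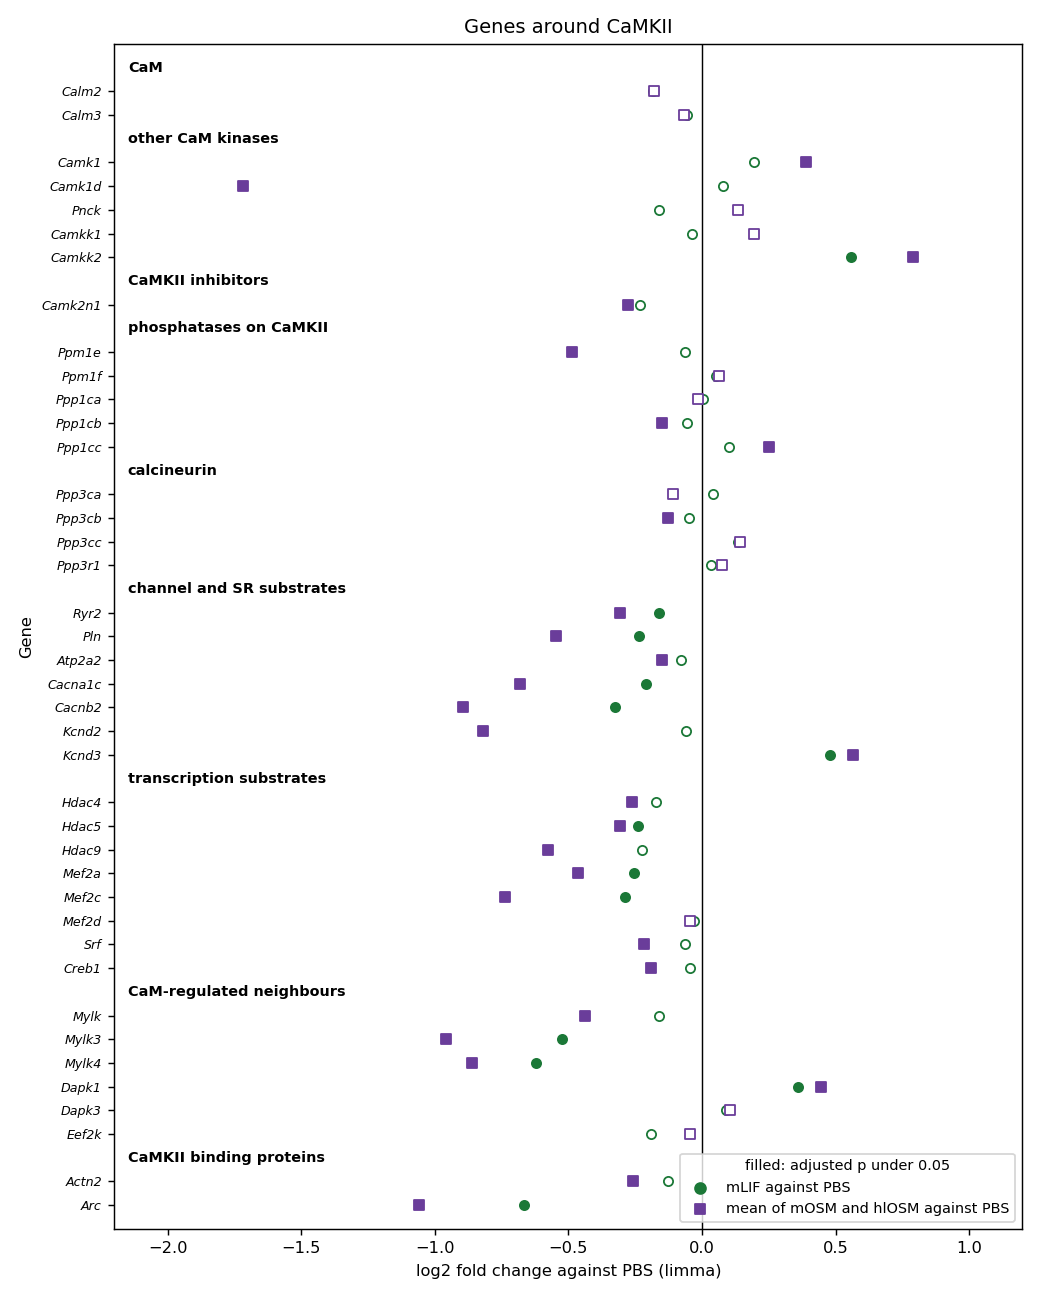
log2 fold change against PBS (x axis, limma) of 40 genes around CaMKII (y axis, grouped by role) with mLIF (circles) and with the mean of mOSM and hlOSM (squares). Filled symbols had an adjusted p under 0.05: 13 with mLIF and 28 with OSM, 5 of the latter to the right of 0.

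Of the inhibitor genes, Camk2n1 fell with OSM (-0.28 ± 0.084, adjusted p = 0.0114) but not without PBS replicate 3 (adjusted p = 0.107), and Camk2n2 had normalized counts of 1 to 7. Taken apart, Camk2n1 was called with hlOSM (-0.36, limma adjusted p = 0.00532) and not with mOSM (-0.19, adjusted p = 0.142).

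Of 5 tested relatives among the CaM kinases, Camkk2 and Camk1 rose with OSM and Camk1d fell, beside 19.6% and 21.4% of all tested genes. Camkk2 encodes the kinase that activates CaMKI, CaMKIV and AMPK. It was measured at 209, 217 and 172 with PBS, 284, 276 and 319 with mLIF, 323, 321 and 409 with hlOSM and 344, 340 and 330 with mOSM. All cytokine libraries were above all PBS libraries, and it rose by 0.56 ± 0.092 with mLIF (log2, SE; limma adjusted p = 0.000562) and by 0.79 ± 0.079 with OSM (adjusted p = 4.9e-08).

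Camk1d, a CaMKI gene, was measured at 35, 28 and 50 with PBS and 43, 33 and 41 with mLIF, against 14, 16 and 8 with mOSM and 7, 10 and 10 with hlOSM. PBS and mLIF overlapped, and both lay above all OSM libraries. It fell by 1.72 ± 0.22 with OSM (adjusted p = 1.28e-06), more than any member. With mLIF the value was 0.080 ± 0.25 (adjusted p = 0.878). Camk1 rose by 0.39 ± 0.055 with OSM (adjusted p = 5.16e-06), and Camk4 had 0 to 2 normalized counts in every library.

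The phosphatase genes were mixed. Ppm1e, which encodes a CaMKII phosphatase, fell with OSM (-0.49 ± 0.074, adjusted p = 1.42e-05). Of the PP1 catalytic subunits, Ppp1cb fell (-0.15, adjusted p = 0.0119) and Ppp1cc rose (0.25, adjusted p = 0.0433), calls that 2 and 8 of the 18 alternatives lost. Ppp1cc was called with hlOSM (0.34, limma adjusted p = 0.0195) and not with mOSM (0.16, adjusted p = 0.307). Of 4 calcineurin genes, Ppp3cb was called lower (-0.13, adjusted p = 0.0406), beside 21.4% of all tested genes, and was lost under 10 of 18. With mLIF no phosphatase gene passed.

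Of the 8 tested genes for channel and sarcoplasmic reticulum substrates, 6 fell with OSM, beside 21.4% of all tested genes. The L-type Ca2+ channel subunits Cacna1c (-0.68 ± 0.048, limma adjusted p = 1.82e-10) and Cacnb2 (-0.89 ± 0.077, adjusted p = 4.83e-09) and the potassium channel gene Kcnd2 (-0.82 ± 0.063, adjusted p = 7.2e-10) fell furthest. Cacna1c ran from 1236 to 1355 with PBS, 1089 to 1145 with mLIF, 808 to 895 with mOSM and 713 to 773 with hlOSM, steps that did not overlap. Kcnd3, another potassium channel gene, rose (0.56 ± 0.10, adjusted p = 9.3e-05).

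Ryr2, the ryanodine receptor that releases Ca2+ from the sarcoplasmic reticulum, fell by 0.31 ± 0.042 with OSM (log2, SE; limma adjusted p = 4.51e-06). Pln, which encodes phospholamban, the brake on the Ca2+ pump, fell by 0.55 ± 0.062 (adjusted p = 3.15e-07), and 64.7% of its exon bases overlap genes on the other strand. Atp2a2, the pump itself, was at -0.15 ± 0.054 (adjusted p = 0.0307), a call that 4 of the 18 alternatives lost (highest adjusted p = 0.132). With mLIF, Cacnb2 (-0.33), Pln (-0.24), Cacna1c (-0.21) and Ryr2 (-0.16) fell and Kcnd3 rose (0.48). All 5 of these mLIF calls were lost under at least 1 alternative.

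Among the transcription substrates, 7 of 8 fell with OSM, beside 21.4% of all tested genes, and 3 fell with mLIF, beside 4.44%. Mef2c fell by 0.74 ± 0.051 with OSM (limma adjusted p = 1.47e-10) and by 0.29 ± 0.059 with mLIF (adjusted p = 0.00346). Its libraries ran from 624 to 701 with PBS, 539 to 559 with mLIF, 400 to 420 with mOSM and 373 to 409 with hlOSM. Mef2a, its relative, fell by 0.47 and 0.25. Of the class II histone deacetylases that hold MEF2 in check, Hdac9 (-0.58) and Hdac5 (-0.31) fell with OSM, as did Hdac4 (-0.26), and Hdac5 fell with mLIF (-0.24). The Hdac5 call with mLIF was lost without PBS replicate 3, mLIF replicate 2 or mLIF replicate 3 (highest adjusted p = 0.114). With OSM, the Srf call was lost under 3 alternatives (highest adjusted p = 0.275) and the Creb1 call without PBS replicate 1 (adjusted p = 0.0684). Srf was called with hlOSM (-0.27, limma adjusted p = 0.0193) and not with mOSM (-0.16, adjusted p = 0.184).

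The myosin light chain kinase genes Mylk3 and Mylk4, which are CaM-regulated relatives, fell with mLIF and with OSM. Mylk3, the cardiac form, fell by 0.52 ± 0.080 with mLIF (limma adjusted p = 0.000335) and by 0.96 ± 0.070 with OSM (adjusted p = 3.19e-10). Mylk4 fell by 0.62 and 0.86, and Dapk1, a CaM-regulated death-associated kinase, rose by 0.36 and 0.45. Mylk, the smooth muscle form, fell with OSM (-0.44 ± 0.13, adjusted p = 0.00842), a call lost without PBS replicate 3 (adjusted p = 0.0691).

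Arc, whose product binds CaMKII beta in neurons, had a profile in steps. It was measured at 208, 231 and 237 with PBS, 135, 142 and 148 with mLIF, 101, 82 and 76 with hlOSM and 126, 130 and 149 with mOSM. As for Camk2b, mLIF and mOSM overlapped between PBS above and hlOSM below. Arc fell by 0.66 ± 0.099 with mLIF (limma adjusted p = 0.000254) and fell by 1.06 ± 0.086 with OSM (adjusted p = 1.8e-09). Actn2, the sarcomeric alpha-actinin that also binds CaMKII, fell with OSM (-0.26 ± 0.050, adjusted p = 0.000279).

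Markers of the cell types in the cultures also differed between conditions, and their part in the results was not tested. In bulk RNA, fewer cells of a type and less RNA per cell cannot be told apart. All 7 cardiomyocyte markers fell with the mean of the OSM conditions and 5 of 7 with mLIF. Over all tested genes, 21.4% and 4.44% fell in these comparisons. Ryr2 is among these markers and also among the substrates above. Their summed level was 46060 to 47661 with PBS, 39870 to 41513 with mLIF, 32226 to 36150 with mOSM and 33137 to 35492 with hlOSM, or 86.8%, 72.7% and 73.7% of the PBS mean. The CaMKII sum stood at 88.2%, 83.4% and 80.9%, and Camk2b alone at 69.5%, 74.2% and 41.6%. Ttn alone had a mean of 32924 in the PBS libraries, and the other cardiomyocyte markers summed to 85.9%, 80.1% and 78.7% of PBS.

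Other cell types went in different directions. Endothelial markers summed to 1045 to 1086 with PBS, 1025 to 1070 with mLIF, 1283 to 1445 with mOSM and 1265 to 1394 with hlOSM. Of them, 4 of 6 rose with OSM, beside 19.6% of all tested genes. The smooth muscle and pericyte list summed to 606 to 815 with PBS, 546 to 616 with mLIF, 309 to 369 with mOSM and 300 to 322 with hlOSM. All 5 tested genes of that list fell with OSM, beside 21.4% of all tested genes. Fibroblast markers split, with 3 higher and 4 lower, and of 5 tested leukocyte markers Cd68 rose and Lyz2 fell.

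Since alpha and beta subunits are best known from neurons, neuron and Schwann cell markers were summed as well. They were low throughout, at 60 to 68 with PBS, 42 to 56 with mLIF, 45 to 60 with mOSM and 34 to 52 with hlOSM for 5 genes together. Elavl4 and S100b did not reach the filter, and Snap25 and Syt1 were not analysed here. Tubb3, a neuronal tubulin gene, was at -0.18 ± 0.16 with OSM (log2, SE) and did not pass (limma adjusted p = 0.38). Whether the fall of any CaMKII gene follows the share of any of these cells was not tested.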

How the data were processed

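Total RNA of cultured cardiomyocytes gave 12 libraries of single-end 75 base reads, and each title supplied the condition and the replicate number. After quality trimming, the authors aligned to mm10 with STAR 2.7.7a, counted reads lying partly inside exons of 1 gene with featureCounts 1.6.5, left out reads with several positions, and normalized the counts. The deposited values are therefore a score, a normalized count rounded to whole numbers, and the normalization method is not given in the sources used here. Whether counting used strand is not given either.

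limma 3.58.1 (lmFit, eBayes with trend) in R 4.3.3 was run on log2(value + 1) for 13184 genes with a value of at least 10 in at least 3 libraries, all conditions in a single fit. Exact permutation tests used SciPy 1.17.1 in Python 3.11.15. Scripts were tested on simulated data. Alternatives were another pseudocount, filter, scaling, variance estimate, set of libraries, gene length, a replicate block and leaving out each library. The members, the gene lists and the tests were chosen with earlier results of these data known. Genes to name were the members, each listed gene called with mLIF, the 3 largest rises and falls of each group of the list with OSM, Camk2n1, Camk2n2, Ryr2, Pln, Camk1d and Camk4, and the 5 most like each member. Hdac4, Hdac5, Atp2a2 and the markers were named after their values were seen. Annotation and coding sequence came from GENCODE M21 (GRCm38), in which 22876 of the 22915 gene identifiers were found and 22676 (99.1%) had the same start and end. Camk2a sequence and protein sequences were not used here. Some listed genes enter the counts and sums but are not reported here by name.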

Additional observations from a re-analysis of the deposited data

How the results depend on the processing

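The fall of Camk2b with mLIF, of Camk2d with OSM, mOSM and hlOSM, and of Camk2a with OSM and hlOSM kept direction and call under all alternatives run. Counts below are of calls among the genes around CaMKII, and the cause of each change was not tested. A filter at 50 brought Camk2g past the threshold with OSM (-0.14, limma adjusted p = 0.0458) and mOSM (-0.16, adjusted p = 0.0498), and robust variance did so with OSM (-0.14, adjusted p = 0.0485). Fitting only the libraries compared brought in Camk2d with mLIF (-0.15, adjusted p = 0.0175). Rises with mLIF numbered 5 there and 5 under quantile normalization, against 3. Values near 0 against mLIF changed sign, to 0.0060 for Camk2g with trimmed mean of M-values scaling and to -0.014 for Camk2a with quantile normalization.

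By coding length in place of exon length, shares of the family's level per kb with PBS, mLIF, mOSM and hlOSM were, for Camk2a 14.7%, 13.5%, 14.9% and 14.4%, for Camk2b 3.70%, 2.91%, 3.29% and 1.89%, for Camk2d 62.2%, 63.6%, 61.1% and 61.6% and for Camk2g 19.3%, 19.9%, 20.7% and 22.1%, which put Camk2d above Camk2g.

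With single libraries left out, OSM against mLIF ranged from -0.038 to 0.053 for Camk2a, -0.034 to 0.025 for Camk2g, -0.37 to -0.29 for Camk2b and -0.19 to -0.13 for Camk2d. Against PBS, Camk2a ranged from -0.35 to -0.24 with mLIF and -0.31 to -0.18 with mOSM, and Camk2g from -0.17 to -0.11 with OSM and -0.23 to -0.11 with mOSM. Falls with mLIF numbered 5 to 10, and rises of OSM over mLIF 0 to 4.

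Replicate numbers recur in each condition's titles, but nothing in the sources used here says that a number marks a shared heart or day, and the values could not show a pairing. Same-numbered deviations correlated between -0.518 and 0.0221 over 6626 genes with a mean of at least 100, and 0 of 12 libraries correlated best with their own number. The number held 5.86% of the variance within conditions (25% without any effect), and the mean of replicate 3 minus replicate 1 over conditions had an SD over genes of only 0.0019 (log2). That difference was thus nearly the same for each of these genes. Whether the authors removed a replicate effect is not given in the sources used here. If so, same-numbered deviations are forced apart, and tests without the block count too many degrees of freedom. The p-values given further up come from fits without the block and would then be too small. With the replicate block, Camk2b in OSM against mLIF was -0.32, as without it, and is again given as a description. In the comparisons that were tested, no member crossed the threshold in either direction with the block. For Camk2b with mLIF the limma adjusted p was 0.0277 with the block, against 0.00587 without it. Over all tested genes, 784 were called with mLIF in the block fit, against 1307 without it.

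Depth is unknown on this scale, so that low genes such as Camk1d, Camk2n2 and Camk4 carry a counting error that could not be given.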
